A study of Homo sapiens with 3 samples.

Results

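The subtelomeric ends of the human autosomes were examined for HMGA1 occupancy in DAMI cells, a leukaemic cell line labelled MPN/AML (myeloproliferative neoplasm and acute myeloid leukaemia). Peaks were taken as end peaks where the summit lay in the first 2 Mb of a chromosome, or within 2 Mb of the last peak end of that chromosome in the list called over input DNA. The short arms of chromosomes 13, 14, 15, 21 and 22 were not used, which left 39 ends, 17 on short arms and 22 on long arms. The list with input DNA as control (the input list) held 4869 end peaks of 385953 peaks in all. The list with histone H3 ChIP as control (the H3 list) held 3248 of 263033. Each end was compared with the stretch from 2 to 6 Mb beside it, which held 12040 and 7966 peaks over all ends.

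The series has 3 libraries from sonicated nuclei of DAMI cells grown in RPMI medium with fetal bovine serum, with no treatment or genotype named, namely an HMGA1 ChIP, an H3 ChIP and input DNA without antibody, with 1 library of each. Both peak lists were called by the authors from the same HMGA1 library, so they are not replicates of each other. With 1 library of each kind there is no replicate error and no p-value. The 95% intervals given cover counting error only, and they treat peaks as independent counts. The lists hold no read numbers or library totals. HMGA1 reads at a summit, and the level of the control there, were recovered from each peak's deposited fold and p-value. A control level is given in multiples of its genome-wide floor, the lowest level the caller used, which was 2.78 reads for input and 2.19 for H3. True control levels below that floor cannot be seen in these lists. The H3 value is on the scale of its list, where the HMGA1 pileup was multiplied by 0.787. The 2 floors are therefore not in the same unit, and the lower H3 value is no lower background.

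HMGA1 is an architectural chromatin protein whose AT-hooks bind the minor groove of AT-rich DNA. Chromosome ends carry telomere repeats, followed inwards by subtelomeric DNA rich in segmental duplications, and then by unique sequence that on many arms is rich in genes and in GC. H3 ChIP follows nucleosomes, and input DNA follows how much DNA of a region enters the libraries. No genome sequence of the hg19 build of the peaks was used, so no peak was assigned to a gene and no base composition was measured. Genes named below are the outermost protein-coding genes of an arm by their order in RefSeq on GRCh38.p14, given as orientation and not as targets.

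HMGA1 peaks were sparse at the chromosome ends. Over input, the 39 ends together held 62.4 peaks per Mb (95% Poisson interval 60.7 to 64.2), the next 2 to 6 Mb held 77.2 (75.8 to 78.6), and the autosomes beyond 6 Mb held 137.7 (137.3 to 138.2). Over H3 the same stretches held 41.6 (40.2 to 43.1), 51.06 (49.95 to 52.2) and 94.7 (94.4 to 95.1) peaks per Mb. The ends made up 2.71% of the autosomal length but held 1.28% of the autosomal input-list peaks and 1.24% of those over H3. Of the 39 ends, 36 had fewer input-list peaks per Mb than the median of 126 in the 1241 inner tiles of 2 Mb that hold a peak, and 30 lay below the lower quartile of these tiles, 82. Over H3, 34 lay below the median of 80 and 27 below the lower quartile of 45.5. The median end held 51 peaks per Mb over input (quartiles 28.2 and 75.8) and 33 over H3 (13.8 and 51.8).

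**Figure D1:**
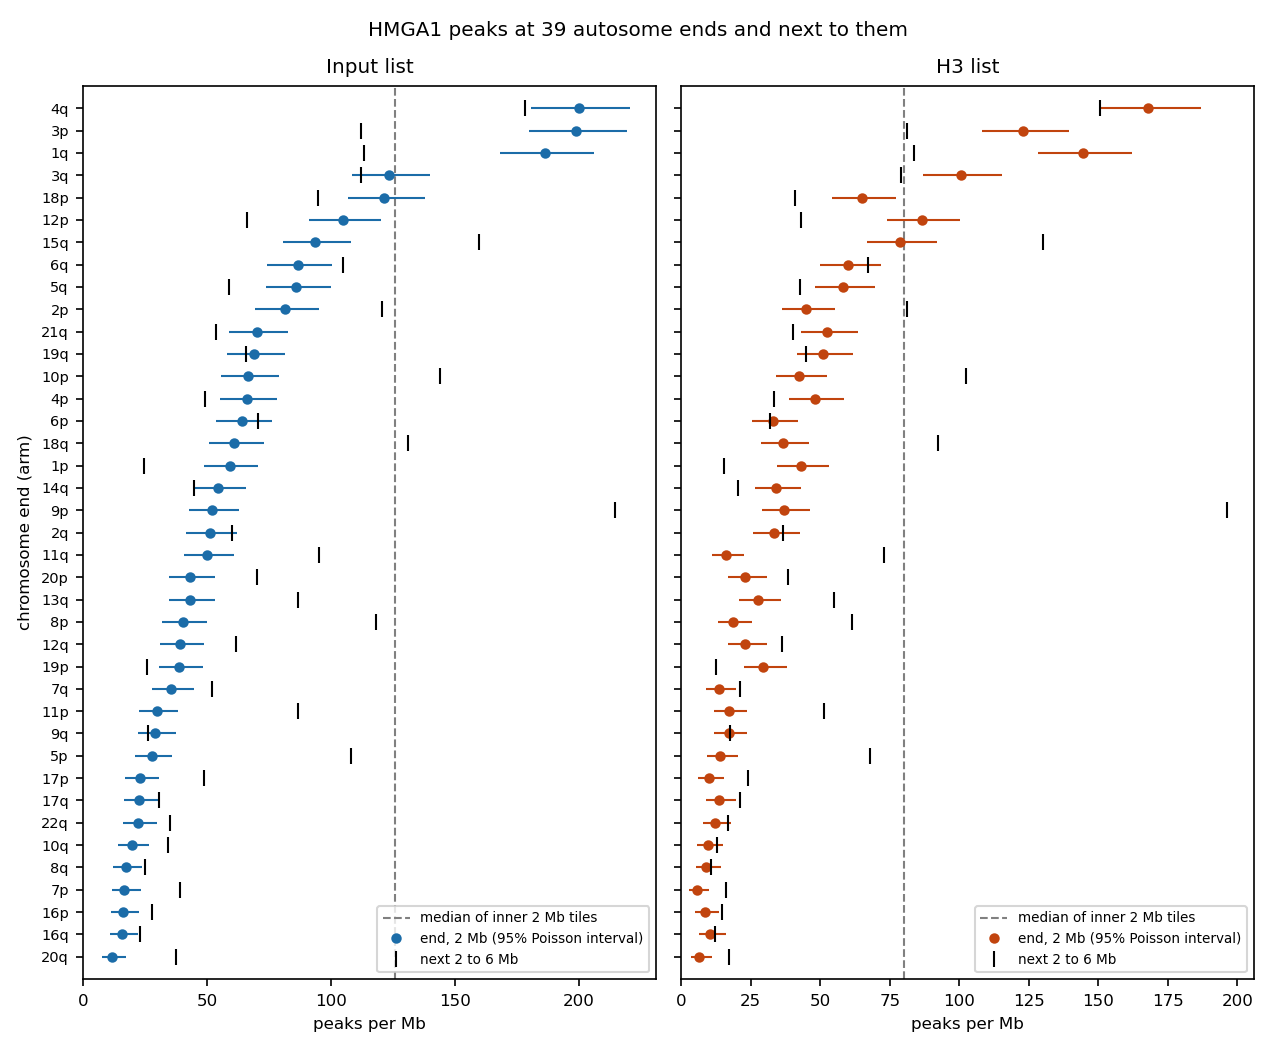
Peaks per Mb (x axis) at each of the 39 ends (y axis, sorted by the input list) in the input list and the H3 list: circles with 95% Poisson intervals are ends of 2 Mb, black ticks the next 2 to 6 Mb, and the dashed line the median of inner 2 Mb tiles. Most ends sit left of the dashed line, and 4q, 3p and 1q sit to its right in both lists.

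The ends differed from each other more than 10-fold. The 5 ends with the most input-list peaks were 4q, 3p, 1q, 3q and 18p. The 4q end held 200 peaks per Mb over input (181 to 221) and 168 over H3. Its outermost genes are DUX4, an early-embryonic transcription factor silenced in most somatic cells and encoded in a repeat array, then FRG2 and FRG1. The 3p end held 199 peaks per Mb over input (180 to 220) and 123 over H3, and its outermost genes include CHL1 and CNTN6, which encode neural cell adhesion molecules. The 1q end held 186.5 (168 to 206) and 144.5, and carries a cluster of olfactory receptor genes such as OR14I1 and OR2T10. In these 3 ends the intervals did not reach down to the inner median in either list.

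The remaining dense ends were close to the inner median over input. The 3q end, which carries RPL35A for a ribosomal protein and DLG1 for a scaffold protein, held 123.5 peaks per Mb over input (109 to 140) and 100.5 over H3. The 18p end, with USP14 for a deubiquitinase and TYMS for thymidylate synthase, held 121.5 (107 to 138) and 65.0.

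The sparsest ends were 20q, 16q, 16p, 7p and 8q, between 11.5 and 17 input-list peaks per Mb. The 20q end, which carries OPRL1 for the nociceptin receptor and SOX18 for an endothelial transcription factor, held 23 peaks in its 2 Mb, or 11.5 per Mb over input (7.29 to 17.3) and 6.5 over H3. The 16q end, with TUBB3, MC1R and the Fanconi anaemia gene FANCA, held 15.5 (10.5 to 22) and 10.5. The 16p end holds the alpha-globin genes HBZ, HBA2 and HBA1 close to the telomere, and it had 16 (10.9 to 22.6) and 8.5 peaks per Mb. The 7p end, with PDGFA for a platelet-derived growth factor, had 16.5 (11.4 to 23.2) and 5.5. The 8q end, with several zinc-finger genes and RPL8, had 17 (11.8 to 23.8) and 9. The intervals of these 5 ends overlap in the input list, so their order is not resolved.

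The ends had fewer peaks, but the peaks called there had folds much like those called elsewhere. The median fold over input was 4.5 at the ends, in the adjacent stretches and in the autosomes beyond, with quartiles of 3.7 and 5.79 at the ends. Over H3 it was 5.11 at the ends, 5.06 beside them and 5.25 beyond. Among single ends the median fold over input ran from 3.9 at 21q to 4.96 at 19p, and 20q had the median of 4.5. Every listed peak passed the authors' threshold, so these medians leave out weaker sites and give no ranking of HMGA1 strength. Peaks of 1 kb or more were 1.07% of the end peaks over input (52 peaks), 1.1% of the adjacent peaks and 2.06% of those beyond. The nearest neighbouring summit was a median of 2.43 kb away at the ends, 2.52 kb in the adjacent stretches and 1.68 kb beyond.

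Against their own neighbouring stretch of 2 to 6 Mb, ends were lower on most arms. This majority shrank in both lists under some other choices of stretch, and over H3 it was lost without long peak-free stretches. In the input list 25 of 39 ends (64.1%) had fewer peaks per Mb than the next 2 to 6 Mb, where 50.9% of comparisons of an inner 2 Mb tile with the 4 Mb on either side of it had fewer. In the H3 list it was also 25 of 39, against 51.5% for inner tiles. In the input list the interval of the ratio lay below 1 at 20 ends, above 1 at 9, and held 1 at 10. In the H3 list it lay below 1 at 16 ends, above 1 at 11, and held 1 at 12. How often the interval of an inner tile leaves out 1 was not counted, so these counts have no background share. The pooled ratio was 0.809 (0.782 to 0.836) over input and 0.816 (0.783 to 0.85) over H3. With an adjacent stretch of only 2 to 4 Mb it was 0.931 (0.895 to 0.968) over input and 0.97 (0.924 to 1.02) over H3, where the interval holds 1, and 22 and 20 of the 39 ends were lower. Without peak-free stretches of at least 100 kb it was 0.966 (0.934 to 0.998) over input and turned to 1.07 (1.03 to 1.11) over H3, and 21 and 18 ends were lower. These stretches were set by the peaks of the same list and took up a larger share of the ends. Leaving them out therefore raises the ratio by construction and is no independent check.

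Peak-free stretches of at least 100 kb took up 22.5 Mb of the 78 Mb of ends in the input list (28.8%) and 23.4 Mb of the 156 Mb beside them (15%). In the H3 list the shares were 46.3% and 29.6%. Whether these gaps lack HMGA1 or lack mappable or sampled DNA was not tested. The longest lay on 9p from 175547 to 1277262, a stretch of 1102 kb without an input-list peak. It was followed by 759.1 kb on 10q (chromosome 10 from 134442445 to 135201518) and 580.2 kb on 20q (chromosome 20 from 61672806 to 62252984). Over H3 the longest was 1394 kb, on 16p.

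The arms with the lowest ratios were 9p, 5p, 20q, 8p and 11p. The 9p end had 52 input-list peaks per Mb against 214.8 beside it, a ratio of 0.242 (0.196 to 0.297), and 0.189 over H3. The 5p end, which carries SDHA for a subunit of succinate dehydrogenase and AHRR for the aryl hydrocarbon receptor repressor, had 27.5 against 108.2 (ratio 0.254, interval 0.188 to 0.337). The ratios of 20q, 8p and 11p were 0.307, 0.338 and 0.341. Over H3 these 5 ends had ratios between 0.189 and 0.382.

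The highest ratios were at 1p, 3p, 1q, 12p and 19p. The 1p end had 59 peaks per Mb over input against 24.5 beside it, a ratio of 2.41 (1.83 to 3.18), and 2.82 over H3. At 3p and 1q the ratios were 1.77 and 1.64 over input and 1.52 and 1.73 over H3. The 12p end, with KDM5A for a histone demethylase and WNK1 for a kinase, had 105 against 66.2 peaks per Mb (ratio 1.58, interval 1.32 to 1.91). The 19p end, on a gene-dense arm, had 38.5 against 25.8 (1.5, interval 1.1 to 2.03). In the H3 list 12p and 19p stood at 2.01 and 2.36. The direction was the same in both lists at 37 of 39 ends, and 6p and 9q, whose intervals held 1 in both lists, were the exceptions.

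Both ends of a chromosome often differed. Of the 17 chromosomes with 2 usable ends, the short-arm end was denser over input on 10 and the long-arm end on 7, and the intervals did not touch on 14. Inner 2 Mb tiles also varied widely, with quartiles of 82 and 187.5 input-list peaks per Mb. How often pairs of inner tiles have intervals that do not touch was not counted in either list. Counts of such intervals are therefore no result about the ends. Over input chromosome 20 was the most uneven, with 43 peaks per Mb at 20p against 11.5 at 20q, a ratio of 3.74. Chromosome 10 followed with 66.5 at 10p and 19.5 at 10q (3.41). In the other direction, chromosome 1 had 59 at 1p and 186.5 at 1q (0.316), chromosome 5 had 27.5 and 86 (0.32), and chromosome 4 had 66 and 200 (0.33). Over H3 the short-arm end was denser on 9 chromosomes and the long-arm end on 8, and the intervals did not touch on 10. There the most uneven were chromosome 10 (42.5 against 9.5, a ratio of 4.47), chromosome 5 (14 against 58, 0.241) and chromosome 12 (86.5 against 23, 3.76), ahead of chromosome 20 (23 against 6.5, 3.54). Pooled, short-arm and long-arm ends held 61.7 (59.06 to 64.4) and 63.0 (60.7 to 65.4) input-list peaks per Mb, which do not differ beyond counting error. Over H3 they held 38.2 (36.1 to 40.3) and 44.3 (42.4 to 46.3). Short-arm ends start at base 1 and long-arm ends at the last peak, so the windows of the 2 arms are not alike.

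Within the ends, peaks were denser in the outermost 250 kb than further in, a cut chosen after the values were seen. This stretch held 87.1 input-list peaks per Mb (81.3 to 93.1) against 58.9 (57.09 to 60.8) from 0.25 to 2 Mb, a ratio of 1.48. Over H3 it held 61.6 (56.8 to 66.8) against 38.8 (37.3 to 40.3), a ratio of 1.59. The outer stretch was the denser one at 30 of 39 ends over input (76.9%) and at 29 over H3 (74.4%). Among inner 2 Mb tiles the first or last 250 kb was denser than its remainder in 44.6% of comparisons over input and 44.3% over H3. Short-arm and long-arm ends had ratios of 1.44 and 1.51 over input and 1.59 each over H3. These windows are unlike, since short arms are counted from base 1 and long arms from the last peak. With short arms counted from their first peak, the ratio over all ends was 1.57 over input and 1.67 over H3. On long arms the last peak is at the end by the rule, and without it the input-list ratio over all ends was 1.44.

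**Figure D2:**
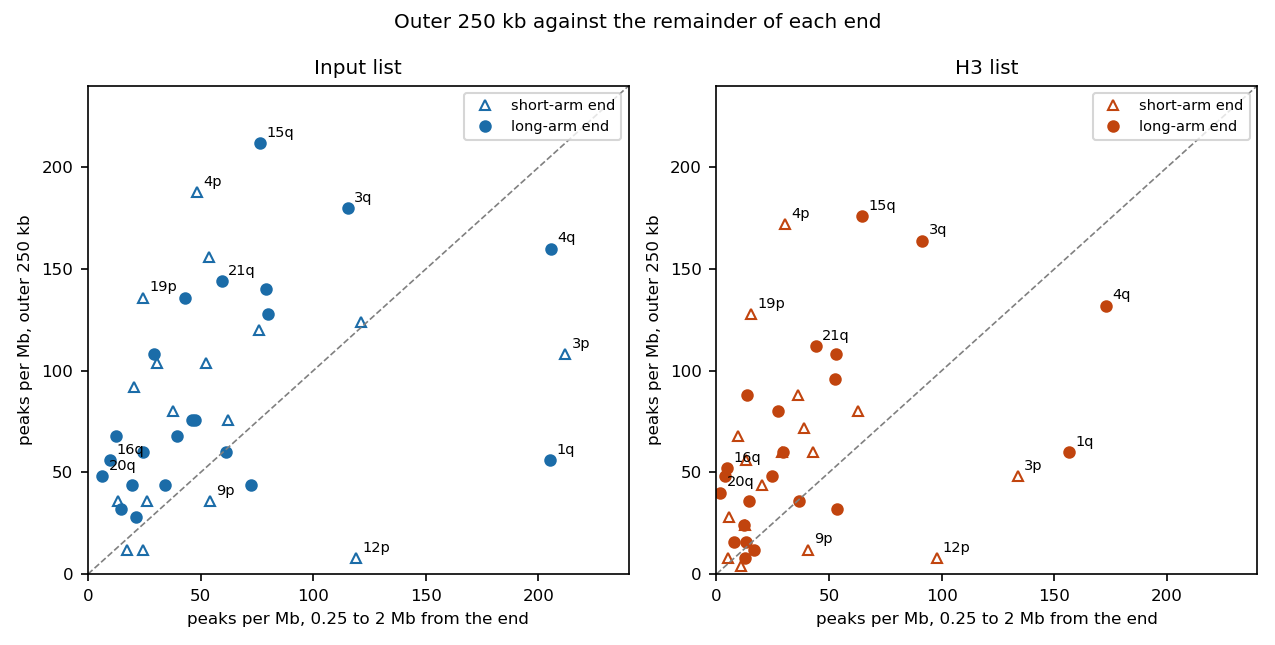
Peaks per Mb in the outer 250 kb (y axis) against peaks per Mb from 0.25 to 2 Mb (x axis) for each of the 39 ends in both lists, with short-arm ends as open triangles and long-arm ends as filled circles; the dashed line marks equal density. In the input list 30 ends lie above the line, with 15q, 4p and 3q highest, while 12p, 1q, 3p and 4q lie below it.

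Pooled over the ends, the outer excess went with a higher control level, but this did not hold at every end. In the outer 250 kb 22.3% of input-list peaks lay at the control floor, against 31.5% from 0.25 to 2 Mb, and in the H3 list the shares were 18.3% and 28.3%. In the outermost 100 kb the input control had a median of 1.44 times the floor and the summits a median of 23 HMGA1 reads, against 20 reads in each bin between 0.25 and 6 Mb. Counting only peaks with the control at its floor, the outer-to-inner ratio was 1.05 (0.893 to 1.22) over input and 1.03 (0.834 to 1.26) over H3, and the outer stretch was denser at 14 and 18 ends. These pooled ratios follow from the shares at the floor and are not a separate measurement. At 19p and 20q the outer-to-inner ratio over input was 5.53 and 7.64, with median controls of 1.57 and 1.3 times the floor against 1.0 further in. At 15q and 14q it was 2.77 and 3.17 with equal controls in both stretches, 1.61 and 1.0. At 1q and 12p it was 0.273 and 0.0673 although the outer control was higher (1.47 against 1.28, and 1.58 against 1.32). The outer control of 12p rests on 2 peaks, and the first 159.9 kb of that arm held no input-list peak. Subtelomeric duplications can place reads of several chromosome ends at 1 of them, and the part of such reads in the outer peaks was not tested. The median fold did not separate outer from inner peaks, at 4.5 in both over input and at 5.11 in both over H3.

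**Figure D3:**
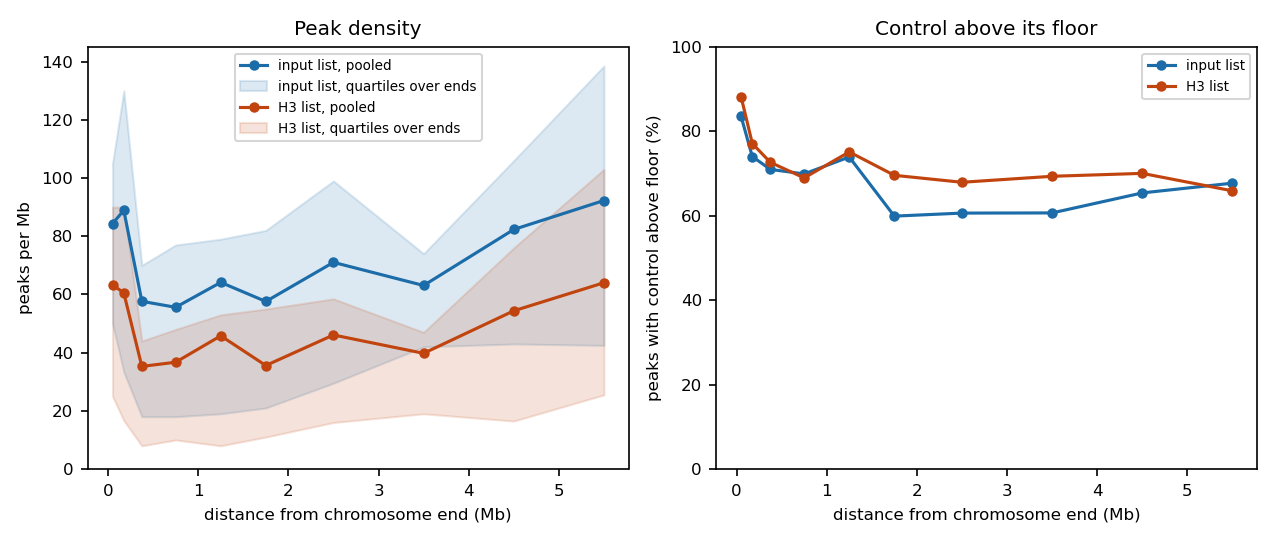
Left, peaks per Mb over all ends by distance from the chromosome end (Mb; lines are pooled values, bands the quartiles over the 39 ends). Right, percent of peaks whose control lies above its floor. Density over input is 84.4 and 88.9 per Mb in the bins up to 0.1 and 0.25 Mb, 57.6 from 0.25 to 0.5 Mb and 92.3 from 5 to 6 Mb, and the share above the floor is highest in the outermost bin.

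Single ends show how uneven this was. At 15q, which carries OR4F15, OR4F6 and PCSK6, a gene of a proprotein convertase, the outer 250 kb held 53 input-list peaks (212 per Mb) against 76.6 per Mb further in. At 4p, with the zinc-finger genes ZNF595 and ZNF718 outermost, it held 47 peaks (188 per Mb) against 48.6. At 19p it held 34 peaks (136 per Mb) against 24.6, and at 20q 12 peaks (48 per Mb) against 6.29. Of the 39 ends, 9 had more than 50% of their input-list peaks in the outer 0.5 Mb: 4p, 10q, 11p, 12q, 14q, 16p, 16q, 19p and 20q. On 14q, where the immunoglobulin heavy chain locus lies at the end of the chromosome, 60 of 109 input-list peaks were in this stretch. The opposite was seen at 12p, with 2 peaks in its outer 250 kb (8 per Mb) against 118.9 per Mb further in, at 1q (56 against 205.1) and at 3p (108 against 212). The outermost summit of a short arm lay between 12.3 kb (2p) and 160.0 kb (12p) from base 1 of the chromosome in the input list, with a median of 61.5 kb. The outer 250 kb of 12p and 3p thus includes 159.9 kb and 61.9 kb from base 1 without an input-list peak.

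The input control was at or above 2 times its floor at the median peak of the 4q end (2.08) and the 21q end (2.45), and of the stretches beside 4q (2.23) and 9p (4.16). At 4q the outer 0.5 Mb held 83 input-list peaks with a median of 51 HMGA1 reads (quartiles 35.5 and 65) at a control of 4.48 times the floor. The next 1.5 Mb held 317 peaks with a median of 30 reads (24 and 40) at 1.93 times the floor, and from 2 to 6 Mb the values were 31 reads and 2.23. The median fold was lower in the outer 0.5 Mb of 4q, 4.03 over input, than in the next 1.5 Mb, 4.53. The 4q end alone held 82 of the 151 end peaks with at least 50 HMGA1 reads over input (54.3%), and 20 ends had none.

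On 9p the control was higher away from the telomere. The outermost 0.5 Mb held 9 input-list peaks with a median of 16 HMGA1 reads at the control floor. None lay between 0.5 and 1 Mb. From 0.5 to 2 Mb the control was 1.92 times the floor with a median of 28 reads at 95 peaks, and from 5 to 5.5 Mb it was 5.76 times the floor with 60 reads at 143 peaks. The outermost genes of this arm include FOXD4, for a forkhead factor, and DOCK8 and KANK1. The low ratio of 9p was measured against a neighbour with 4.16 times the floor, and without 9p the pooled ratio over all ends was 0.852 over input and 0.884 over H3. DNA copy number was not measured beyond these control levels.

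The control also differed between the end of 11q and its neighbour. Its end had the input control at its floor and a median of 15 HMGA1 reads at 100 peaks, whereas its adjacent stretch had 1.79 times the floor and 26 reads at 381 peaks. The share of input-list peaks also present over H3 was 33% at the end and 73.2% beside it. On 21q, by contrast, the control stayed raised from 2.56 times the floor in the outer 0.5 Mb to 1.91 from 2 to 6 Mb, with medians of 30 and 27 reads. The 21q end also had the lowest median fold of all ends in both lists, 3.9 over input and 4.57 over H3.

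**Figure D4:**
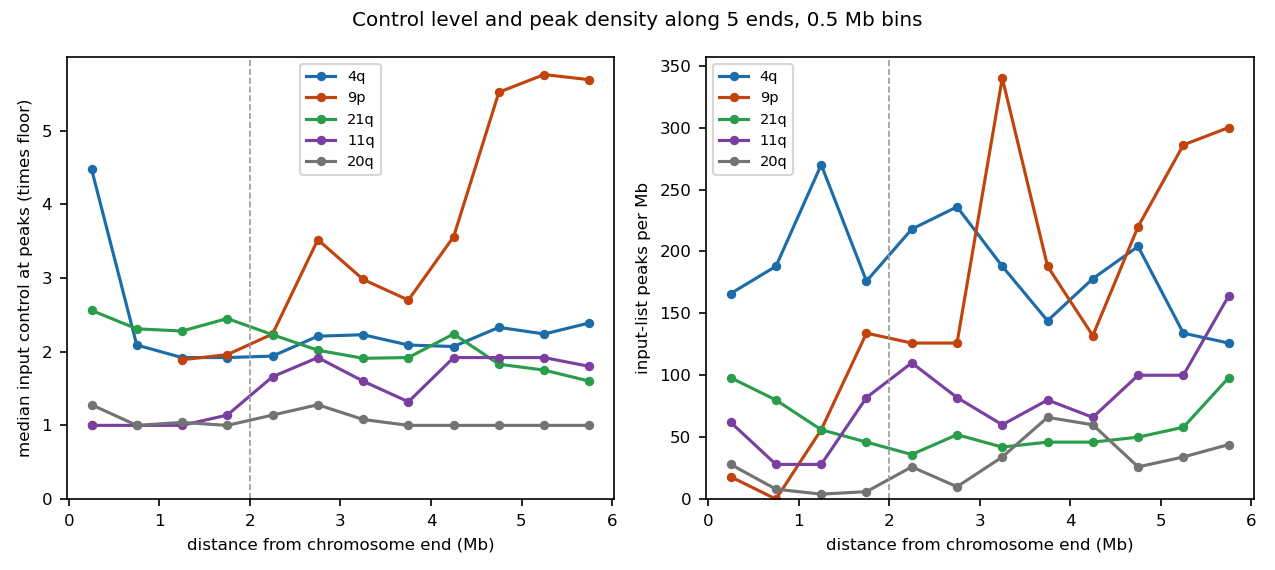
Median input control level at peaks in multiples of its floor (left) and input-list peaks per Mb (right) in 0.5 Mb bins by distance from the end for 4q, 9p, 21q, 11q and 20q; the dashed line marks the inner border of the ends at 2 Mb, and 9p has no point at left from 0.5 to 1 Mb, where it had no peak. The 4q control falls from 4.48 after the outer bin, 9p reaches 5.76 from 5 to 5.5 Mb, and 11q leaves the floor beyond 1.5 Mb.

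Ranked by the authors' q-value, 8 of the 10 leading input-list peaks at the ends lay on 4q and 15q, and the others were on 4p and 5q. First came a 15q peak on chromosome 15 from 102485020 to 102485684, with 141 HMGA1 reads at a control of 8.32 reads and 15.2-fold over input, 3.15 kb from the last peak end of the chromosome. A second 15q peak followed from 102486045 to 102486553 (12.3-fold, 132 reads). The third was on 4q from 190594415 to 190595306, with 156 reads, the most of any input-list end peak, at a control of 16.02 reads and 9.23-fold over input. This peak led the H3 list by q-value, at 11.9-fold. In the H3 list 5 of the 10 leading peaks were on 4q, 3 on 15q, 1 on 4p and 1 on 18p, among them a 4q peak from 190873912 to 190874762 (8.15-fold, 123 reads). The 4p peak from 48749 to 49358 had 117 reads and 10.1-fold over input, and 12-fold over H3. Other 4q peaks of this rank started at 189779679 (15.2-fold, 84 reads), 190287844 (13.6-fold, 85 reads), 190857160 (6.81-fold, 133 reads) and 190845898 (6.71-fold, 131 reads). The last pair stood over 18.7 control reads each, 6.72 times the floor.

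By fold the leading peaks were spread over more ends. The highest fold over input was 16.5, at a 9q peak from 140153983 to 140155069 with 65 HMGA1 reads at a control of 1.08 times the floor. It was followed by a 19q peak from 57621579 to 57622335 at 15.6-fold with 58 reads and the input control at its floor. Both were lower over H3, at 10.1-fold and 6.66-fold. The 18p peak from 1629129 to 1630118 had 68 reads and 15.1-fold over input, and it had the highest fold of all end peaks over H3, 17.1, with H3 at its floor. The 5q peak from 180701459 to 180702755 was 14.7-fold over input and 10.5-fold over H3. A 5q peak of the H3 list from 180763739 to 180764427 stood at 14.4-fold over H3 and 9.15-fold over input. The others among the 10 highest folds over input were on 15q from 101840357 (13.9-fold), 16q from 90252046 (13.8-fold), 1q from 248192413 (13.8-fold) and on 15q and 4q as above. In the H3 list the 10 highest folds included 2 peaks on 10p, from 940993 (13.6-fold) and from 950307 (13.4-fold), 1 on 19p from 182654 (12.7-fold) and 1 on 1p from 341480 (12.6-fold). All peaks named here had a counterpart in the other list. Of all end peaks, 327 (6.72%) reached 8-fold over input, against 6.6% of adjacent peaks and 7.34% of those beyond. The 1q end held the most by count, 37 of its 373 peaks (9.92%). By share 16q (6 of 31 peaks, 19.4%) and 1p (17 of 118, 14.4%) were highest.

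End peaks were found over both controls nearly as often as peaks elsewhere. Of the 4869 input-list end peaks 64.2% (Wilson 95% interval 62.9 to 65.6) overlapped an H3-list peak by at least 1 bp, against 64.2% of the adjacent peaks and 65.8% of all input-list peaks. On the autosomes beyond 6 Mb the share was 66.4% (66.2 to 66.5), slightly above the ends and the stretches beside them. Of the 3248 H3-list end peaks 97.7% (97.1 to 98.2) overlapped an input-list peak, against 98.2% of adjacent peaks and 98.3% of all H3-list peaks. A share this near the whole list is no result about the ends. Input-list end peaks absent over H3 had a median of 15 HMGA1 reads and 3.7-fold enrichment, whereas those present had 24 reads and 5.26-fold. The adjacent peaks had the same medians, so this is not particular to the ends.

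At equal HMGA1 reads, input-list peaks at the ends and beside them stood apart from those of the remaining autosomes in 3 of 5 ranges of reads. Among peaks with 18 to 24 reads, 76.2% (74.0 to 78.2) of input-list peaks at the ends were also called over H3, against 79.2% (77.9 to 80.5) beside them and 86.8% (86.6 to 87.0) beyond. With 14 to 17 reads the shares were 32.4%, 31.1% and 38.4%, and with 25 to 49 reads 95.9%, 95.6% and 98.6%. With 8 to 13 reads they were 5.03% (3.5 to 7.17), 5.63% (4.57 to 6.92) and 6.36%, and with 50 reads or more 99.3% (96.3 to 99.9), 99.7% and 99.7%, which do not differ beyond counting error. The control levels moved with this. At same-base summits of both lists the H3 control had a median of 1.2 times its floor at the ends and beside them and 1.03 beyond, and the input control 1.28, 1.28 and 1.2 times. Their part in the difference was not tested.

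Between single ends, the share of input-list peaks found over H3 was higher where summits held more reads. It ran from 33% at 11q (24.6 to 42.7), 33.3% at 7p (19.8 to 50.4) and 36.6% at 7q (26.4 to 48.2), where the median summit held 15 or 16 HMGA1 reads, to 81.2% at 4q (77.1 to 84.8) with 33 reads. Shares of 77.6% at 12p and 77.0% at 15q came with 21 and 24 reads. Over the 39 ends Spearman's rho of this share with the median reads was 0.853, as a description of ends that share all libraries. Both lists were called from the same HMGA1 reads, and the share rose with reads at the ends, beside them and beyond. This rho is therefore no separate result about the ends. In the H3 list rho was -0.4, and the share was at least 92.4% at every end, with the lowest value at 15q, where 87.9% of the peaks in the outer 0.5 Mb had an input-list counterpart. The highest HMGA1 read number of an H3-list end peak was 175, on 1p, where no input-list peak exceeded 76 reads.

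**Figure D5:**
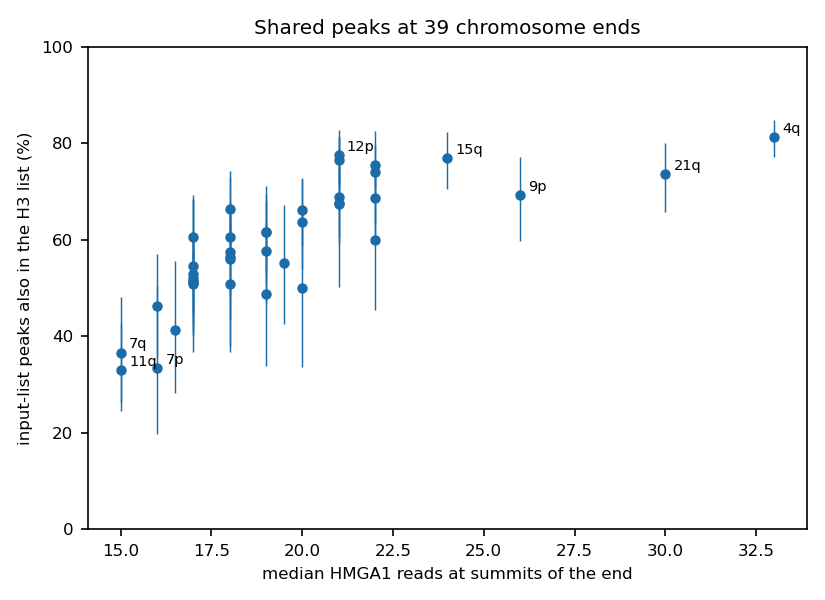
Percent of input-list peaks of each end that are also in the H3 list (y axis, with Wilson 95% intervals) against the median number of HMGA1 reads at the summits of that end (x axis). The share is lowest at 11q, 7p and 7q and highest at 4q.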

How the data were processed

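The authors deposited 2 peak lists made with MACS2 on hg19, per the submitters' processing notes. Not given in the sources used here are the MACS2 version, the read filters and the aligner. For each peak the deposited rows give interval, summit, fold enrichment (a ratio), −log10 p-value, −log10 q-value and a score, which the authors' files give as 10 times the −log10 q-value without decimals. Fold and q are the authors' own values per peak. Names inside the lists carry a prefix other than HMGA1, and the ChIP was taken as HMGA1 from the list names.

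A whole HMGA1 pileup and a control level were sought for each peak that give back its fold, as (pileup + 1) / (control + 1), and its p-value, as a Poisson tail. All 385953 and 263033 peaks were recovered within 0.001 of the −log10 p, after the pileup of the H3 list was multiplied by 0.787, fitted on 400 peaks; at 114050 summits on the same base both lists gave equal pileups. The procedure was tested on simulated data, and recovered 100% of 20000 unscaled and 99.99% of 20000 scaled peaks. Total depth is unknown, and the lowest pileup called was 8 (input list) or 11 reads (H3 list).

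The rule in the design named the 5 ends with the most and the fewest input-list peaks, the 5 with the highest and lowest ratio to their neighbour, and the 10 end peaks of each list with the highest fold and q. Other ends named, and the outer 250 kb, were chosen after their values were seen. Members and measures were chosen with earlier results of these data known. Planned work on AT content and on genes at peaks was not run, since no hg19 sequence or annotation was used. Intervals are exact Poisson for densities, exact binomial for ratios and Wilson for shares. Tiles of 2 Mb were laid from 6 Mb inside each chromosome. Tools were matplotlib 3.10.9, scipy 1.17.1, pandas 2.3.3 and numpy 2.4.6 under Python 3.11.15. Coordinates are 1-based on hg19.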

Additional observations from a re-analysis of the deposited data

How the results depend on the processing

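No paired analysis was possible because there is 1 library per antibody, and no replicate could be left out. The AT content alternative was not run. Of the 78 values under alternatives, 55 stayed within the counting interval of the reported value (or within 1.5 times a count of ends), 22 moved and 1 reversed. The limit for counts of ends is wide, and 18 of 39 ends against 25 still counted as staying. This tally therefore cannot show whether a majority of ends was lost. The density of the ends over the adjacent stretch was 0.931 (input) and 0.97 (H3, interval holding 1) with an adjacent stretch of 2 to 4 Mb, and 0.852 over H3 without the 3 ends with a raised control (4q, 9p and 21q). Without peak-free stretches of at least 100 kb it was 0.966 over input and reversed to 1.07 over H3. That setting raises the ratio by construction, since the stretches were set by the same peaks. With peaks at the control floor alone, an alternative added after the data were seen, it was 0.672 and 0.677. The count of ends below their neighbour ran from 21 to 26 of 39 over input. It was 22 with a neighbour of 2 to 4 Mb and 21 without peak-free stretches, where the inner-tile share was 50.9%. Over H3 the count ran from 18 to 25: at 20 (neighbour of 2 to 4 Mb) it was near the inner-tile share of 51.5%, and at 18 (without peak-free stretches) most ends were no longer lower. The share of input-list end peaks also over H3 was 69.0% for peaks with −log10 q from 5 upwards, 73.4% for folds from 4 upwards, 62.2% without the raised ends and 61.4% with 50% of both peaks shared. The share of H3-list end peaks over input was 95.7% (q filter), 86.2% (fold filter), 92.1% (50% of both shared) and 95.8% (summits within 200 bp). The ratio of median folds over input was 1.0 at first, 1.005 with the q filter and 1.006 with the fold filter. All alternatives for the outer 250 kb were added after the data were seen. Its ratio was 1.22 and 1.23 with an outer stretch of 0.5 Mb, where 24 and 27 ends were denser outside, against 30 and 29. With peaks at the control floor alone the ratio was 1.05 and 1.03, and 14 and 18 ends were denser outside. What causes these shifts was not tested. Depth limits the lists to summits with at least 8 HMGA1 reads over input and 11 over H3.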
